A study of Mus musculus with 8 samples.

Results

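Interferon response genes are genes that cells switch on after contact with interferon, and 38 of them, listed by symbol, were followed here across 8 arrays of mouse pro-B cells. All 38 had a probe on the array and all 38 passed the filter on dim probes, so they make up 38 of the 22927 genes tested. They were measured by 50 probes on 59 spots, and the probe of highest mean was tested where a gene had several. Membership was set by symbol, with no threshold on a measured value.

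Interferons bind receptors at the cell surface and activate the kinases Jak1 and Tyk2, which phosphorylate STAT proteins. Type I interferon brings Stat2 and Irf9 into a complex that binds the interferon-stimulated response element (ISRE) in the promoters of its target genes, whereas interferon gamma acts at the gamma-activated site (GAS). The targets encode antiviral effectors, sensors of foreign nucleic acid, and the pathway's own transcription factors and brakes, so many targets are known to move together. Early B cell precursors carry the interferon receptors, and interferon is known to restrain their growth in IL-7.

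The letters that the interferon-activated complex is known to read can be seen in the promoters of many of the listed genes, and 8 of them are shown because they carry several copies of the element, belong to members with the fullest values below, or come from a part of the complex itself (Stat2). Sequences are from RefSeq, mouse build GRCm38.p6, written 5′ to 3′ along the strand of the gene, and capitals mark each match to the core of the ISRE (GAAA, any 2 bases, GAAA, or the same letters on the opposite strand). Ifit1 (chr19:34640763-34640835, plus strand) and Ifit3 (chr19:34583351-34583438, plus strand) each hold 2 separate matches. Isg15 (chr4:156200853-156200918, minus strand) holds 3 overlapping matches, and Oas1a (chr5:120907508-120907567, minus strand), Irgm1 (chr11:48871413-48871472, minus strand) and Bst2 (chr8:71537565-71537624, minus strand) each hold 2 overlapping ones. Gbp2 (chr3:142620582-142620635, plus strand) and Stat2 (chr10:128270254-128270307, plus strand) each hold 1.
Ifit1: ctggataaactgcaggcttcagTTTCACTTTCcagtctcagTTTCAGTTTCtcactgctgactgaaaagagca
Ifit3: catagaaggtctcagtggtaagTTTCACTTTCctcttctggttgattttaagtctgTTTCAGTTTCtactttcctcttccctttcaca
Isg15: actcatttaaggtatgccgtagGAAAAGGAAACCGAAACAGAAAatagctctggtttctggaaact
Oas1a: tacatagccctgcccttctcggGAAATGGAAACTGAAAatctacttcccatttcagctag
Irgm1: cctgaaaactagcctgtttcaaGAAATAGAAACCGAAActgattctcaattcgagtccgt
Bst2: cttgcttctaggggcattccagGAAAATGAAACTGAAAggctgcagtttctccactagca
Gbp2: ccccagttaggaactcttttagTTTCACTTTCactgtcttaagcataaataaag
Stat2: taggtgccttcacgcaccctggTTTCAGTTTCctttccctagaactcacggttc

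A promoter window of 300 bases, 250 before and 50 after the annotated start, was at hand for 28 of the 38 members. The ISRE core, searched on both strands, lay in 15 of the 28 (53.6%), against 1079 of all 27025 promoters in the table (3.99%). On the strand of the gene alone, 8 of the 28 (28.6%) held it, against 557 of all promoters (2.06%). The GAS letters (TTCNNNGAA, which read the same on both strands) lay in 8 of the 28 (28.6%), against 2582 of all promoters (9.55%). Oas1a, Igtp, Eif2ak2 and Bst2 held both motifs, and in Bst2 they overlapped. There were 23 ISRE matches in all, of which 20 began upstream of the start and 11 overlapped another ISRE match. A match is a description of these letters and neither a site nor a cause.

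**Figure D1:**
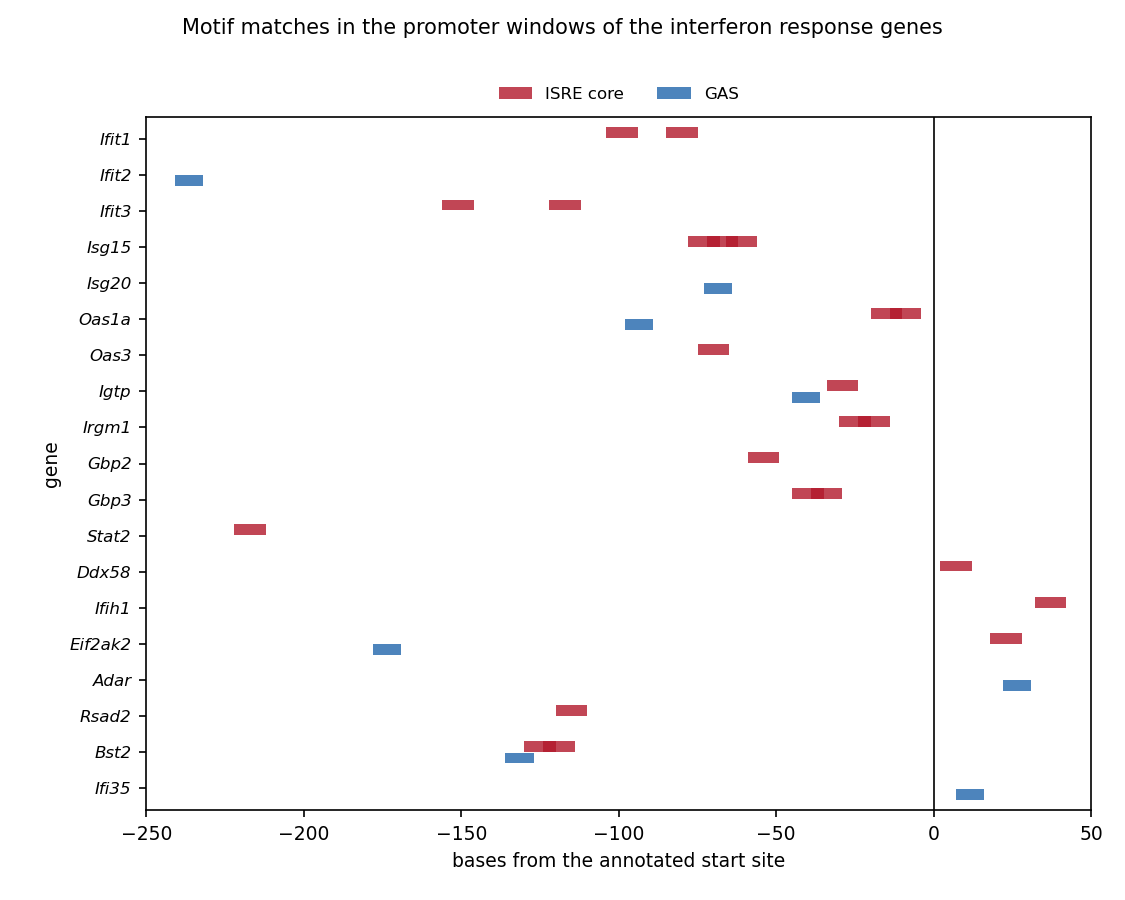
Position of each ISRE core match (red) and GAS match (blue), in bases from the annotated start, in the 300-base promoter windows of the 19 members that hold either motif, out of 28 with a window. Of 23 ISRE matches, 20 begin upstream of the start, and first bases run from -222 to 32.

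The study raised Lin28b, an RNA-binding protein that keeps let-7 microRNAs from maturing, in adult cells and let-7b itself in fetal ones. All cells came from Rag1-null BALB/c mice, whose B lineage stops at the pro-B stage, and RNA was hybridised to Agilent arrays of 1 colour. The BM Lin28b group (2 arrays) held pro-B cells of adult bone marrow given Lin28b by retrovirus, and the BM empty-vector group (2 arrays) held such cells given the empty pMIG vector. The FL let-7 group (2 arrays) held pro-B cells of fetal liver from gestation day 16 given let-7b, and the FL empty-vector group (2 arrays) held such cells given the empty MSCV vector. A BM sort pooled 2 mice and an FL sort pooled the embryos of a litter, 8 on average. In all 4 groups cells grew on OP9 stroma with IL-7, and GFP-positive cells, which carry the vector, were sorted on day 4 after transduction. Treated and control cells thus shared stroma, IL-7 and exposure to a retrovirus, and no group of uninfected cells was analysed here. The labels describe the 2 arrays of a group as separate sorts. The p-values measure only the spread between these arrays, and 2 arrays against 2 cannot give an exact two-sided permutation p below 0.333.

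Every level below is log2 of the processed signal relative to the array's 75th percentile, which lay at 1920 to 2230 signal units on the BM arrays. On the FL arrays it lay at 485 and 271 with empty vector and at 488 and 467 with let-7 (replicates 1 and 2). Probes differ in how brightly they hybridise, so no member's level is set against another's. The 4 BM arrays shared slide 1. FL arrays of replicate 1 lay on slide 2 and those of replicate 2 on slide 3, where 22092 and 22339 probes were well above background, against 26691 and 26990 on slide 2. Of 2 Lin28b probes, 1 read 0.35 and 0.07 on the BM Lin28b arrays, against -9.16 and -8.85 on the BM empty-vector arrays, where it was not well above background. The other read -5.86 and -5.75, against -6.58 and -6.32, a much smaller gap. All 13 tested pro-B cell markers, Cd79a and Pax5 among them, were well above background on every array.

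The second FL empty-vector array stood apart from the first in the interferon response genes. Replicate 2 minus replicate 1 was negative for 38 of 38 members in the FL empty-vector group, with a median of -1.56 and a range of -3.86 (Ifit1) to -0.06 (Stat2). Over the 37 members measured in FL, all but Rsad2, the median was -1.61. Over all 22927 genes the median of the same difference was 0.01 and the 5th percentile was -1.76, and 16 members lay below that percentile. FL empty-vector replicate 2 was also the dimmest array, with a 75th percentile of 271 signal units, against 467 for FL let-7 replicate 2. The 2 FL let-7 arrays, which lay on the same 2 slides, differed by a member median of -0.05. The members thus had a median SD of 1.1 in the FL empty-vector group, against 0.29 for all genes. In the FL let-7 group the median SD was 0.12 for the members and 0.22 for all genes.

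A smaller gap of the opposite direction separated the 2 BM empty-vector arrays. Replicate 2 minus replicate 1 had a member median of 0.31 there, with 37 of 38 members higher in replicate 2 and 8 members above the 95th percentile of all genes (0.56). The 2 BM Lin28b arrays differed by a median of -0.10. Across the 37 members measured in FL, the gap in FL empty vector and the gap in BM empty vector had a Pearson r of -0.567 and a Spearman rho of -0.701, so members with a wide gap in one group tended to have a wide gap in the other. That correlation is a description over genes that share 4 arrays and are not independent. The cause of either gap was not tested, and the let-7 differences below are followed by their values without FL empty-vector replicate 2. Those values set let-7 arrays of slides 2 and 3 against a control on slide 2 alone, so slide is not matched in them.

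**Figure D2:**
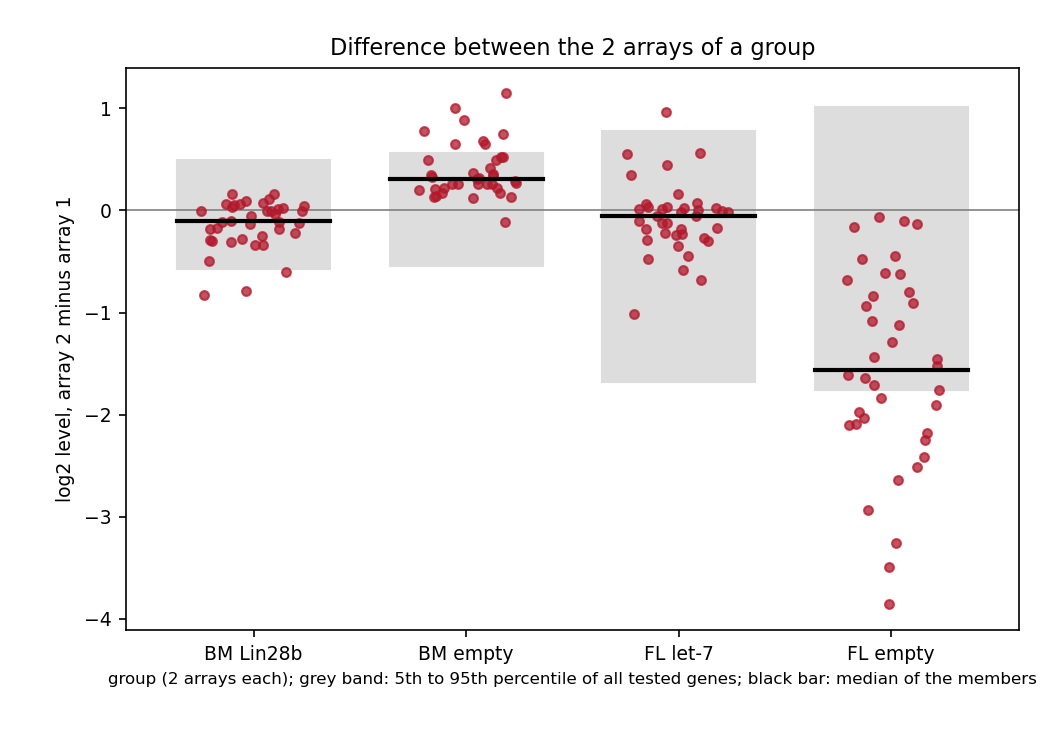
Difference in log2 level between the 2 arrays of each group (replicate 2 minus replicate 1) for each of the 38 members (points), with their median (black bar) and the 5th to 95th percentile of all 22927 genes (grey band). The FL empty-vector points all lie below 0 with a median of -1.56, whereas the FL let-7 points have a median of -0.05.

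Lin28b in adult BM cells went with lower levels across the list, although no single gene passed the test. The difference, BM Lin28b minus BM empty vector, was negative for 38 of 38 members, with a median of -0.77 on the log2 scale and a range of -1.33 (Irf7) to -0.09 (Trim25). The median over all genes was -0.04. Both BM Lin28b arrays lay below both BM empty-vector arrays for 37 of the 38 members, against 32.3% of all genes, and Trim25 was the exception. Adjusted over all genes in limma, 0 members were called at 0.05, and 0% of all genes were. At an unadjusted p under 0.05 there were 4 members, Gbp2, Zbp1, Ddx58 and Parp9, all lower, while over all genes 372 were lower and 447 higher. Fewer cells of a type and less RNA per cell cannot be told apart in these bulk samples.

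**Figure D3:**
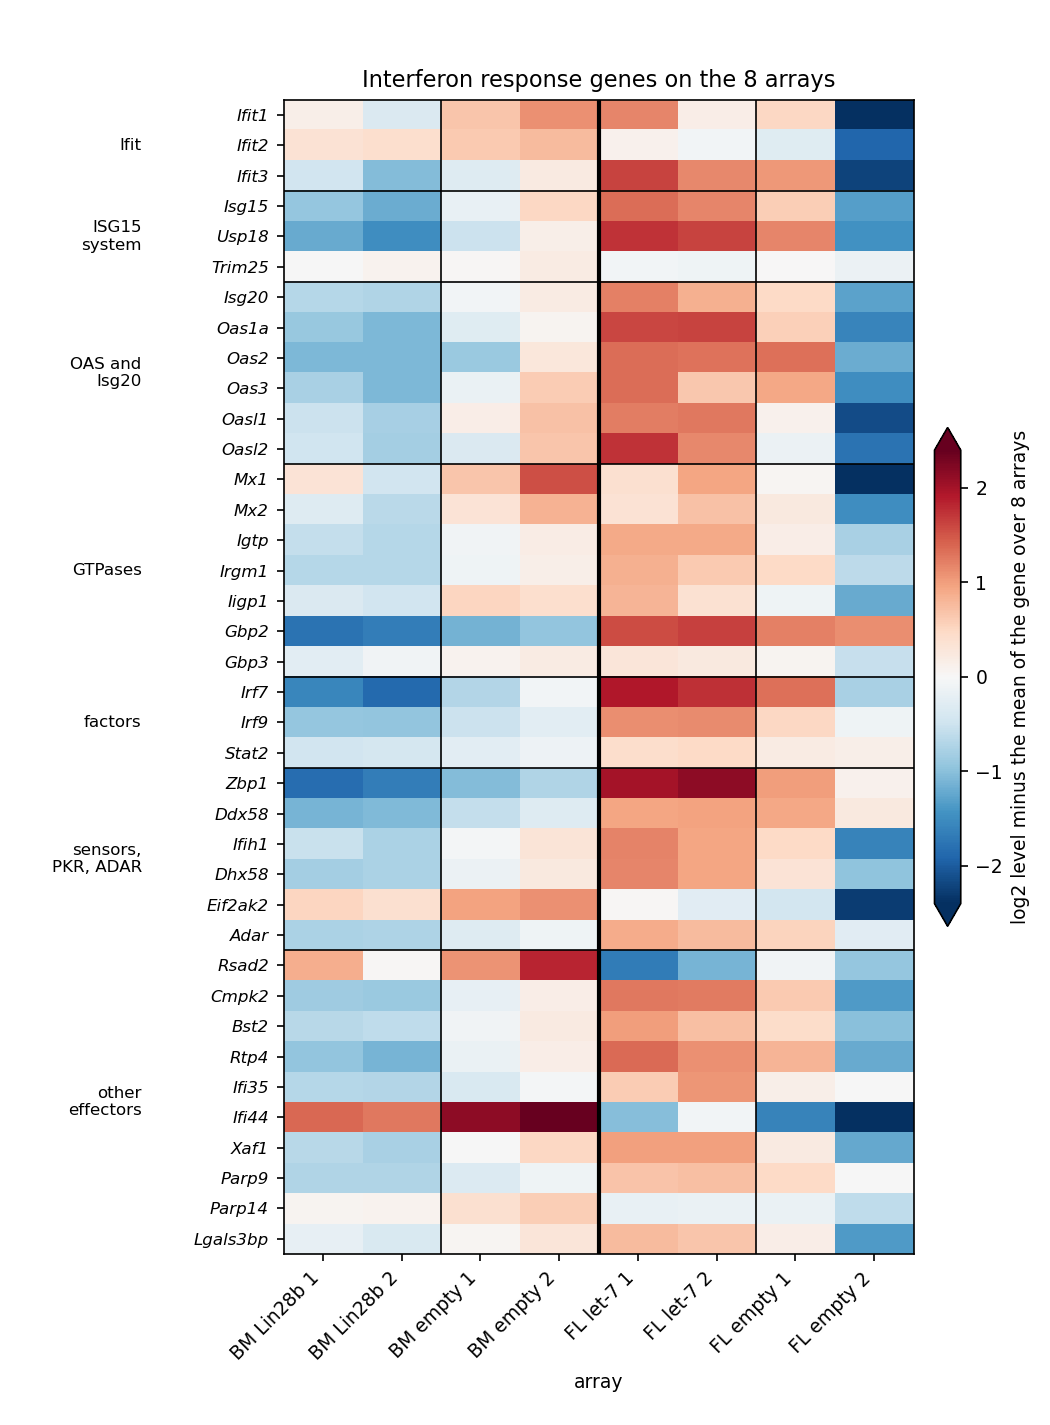
Level of each member on each array minus the gene's mean over the 8 arrays (log2, colour scale), with genes grouped by role and arrays by group. Within BM the Lin28b columns are lower than the empty-vector columns for 37 of 38 genes, and within FL the second empty-vector column is the lowest for 37 of 38, all but Rsad2.

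Let-7b in FL cells went with higher levels across the list, by an amount that depended on a single control array. Rsad2 was not well above background on any FL array, which leaves 37 members measured there. The difference, FL let-7 minus FL empty vector, was positive for 36 of the 37, with a median of 1.28 and a range of -0.02 (Trim25) to 2.54 (Ifi44), against a median of -0.06 over all genes. Both FL let-7 arrays lay above both FL empty-vector arrays for 32 of 38 members, against 11.9% of all genes. In limma 0 members were called, and the smallest adjusted p among them was 0.232 (Zbp1), while 0.0305% of all genes were called (5 higher and 2 lower). At an unadjusted p under 0.05 there were 18 members, all higher, against 1014 of all genes higher and 1226 lower.

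Within slide 2 the median of FL let-7 minus FL empty vector over these 37 members was 0.56, with 35 positive and a range of -0.06 (Trim25) to 1.86 (Oasl2). Within slide 3 it was 2.06, with 37 positive and a range of 0.02 (Trim25) to 4.48 (Ifi44). All genes had medians of -0.01 on slide 2 and -0.12 on slide 3. Members thus lay higher with let-7b on both slides, and the size differed between them.

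Without FL empty-vector replicate 2 the median over the 37 was 0.50, 35 were positive and 0 were called, with a smallest adjusted p of 0.237. Without FL empty-vector replicate 1 it was 2.07 and 25 members were called, all higher, against 2.28% of all genes called (305 higher and 217 lower). In both of these fits the remaining FL empty-vector array is assumed to vary like the other groups. It lies on a single slide, while the let-7 arrays lie on slides 2 and 3, so slide is not matched. The direction therefore held for most members with either control array, while the calls depended on which one was kept.

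**Figure D4:**
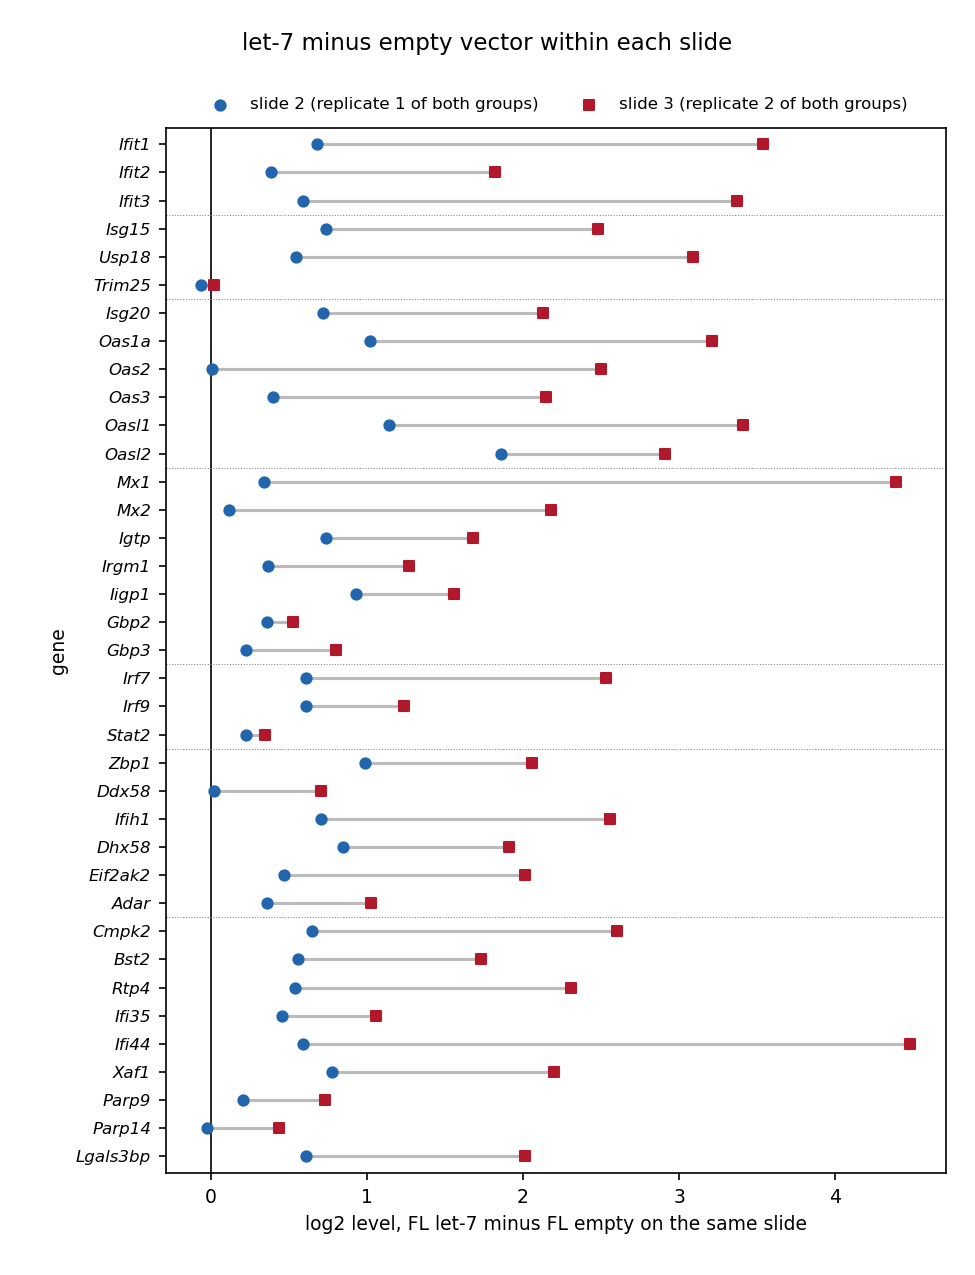
FL let-7 minus FL empty vector (log2 level) for each of the 37 members measured in FL within slide 2 (circles) and within slide 3 (squares), with genes grouped by role and a line joining the 2 values. On slide 2 the median is 0.56 and on slide 3 it is 2.06, and 35 and 37 of the 37 members lie above 0.

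The tetratricopeptide proteins of the Ifit family bind foreign RNA and the translation machinery, and their 3 genes form a cluster on chromosome 19, where their probes span 34650244 to 34723855 (mm9). Ifit1 read -1.88 and -2.37 on the BM Lin28b arrays, against -1.35 and -0.93 on the BM empty-vector arrays. In FL it read -0.85 and -1.86 with let-7, against -1.53 and -5.39 with empty vector. The groups separated in BM but overlapped in FL, and FL empty-vector replicate 2 was not well above background. Ifit2 read -1.40 and -1.34 with Lin28b, against -1.12 and -0.98 in BM empty vector, and -1.64 and -1.81 with let-7, against -2.03 and -3.64 in FL empty vector. Ifit3 read -1.37 and -1.97 with Lin28b, against -1.23 and -0.71 in BM empty vector, and 0.71 and 0.23 with let-7, against 0.12 and -3.14 in FL empty vector. For both genes every treated array lay on the same side of its 2 controls. The let-7 difference was 2.11 ± 1.20 (SE) for Ifit1, 1.11 ± 0.49 for Ifit2 and 1.98 ± 1.01 for Ifit3 (adjusted p = 0.651, 0.553 and 0.611). Leaving out FL empty-vector replicate 2 gave 0.18 for Ifit1, 0.30 for Ifit2 and 0.35 for Ifit3. Within slides 2 and 3 let-7 minus empty vector was 0.68 and 3.54 for Ifit1, 0.39 and 1.82 for Ifit2 and 0.59 and 3.37 for Ifit3.

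Isg15 is a ubiquitin-like protein attached to other proteins in interferon-treated cells, Usp18 removes it and also damps signalling at the type I receptor, and Trim25 is a ubiquitin ligase that helps activate the RNA sensor RIG-I. Isg15 read 2.64 and 2.38 on the BM Lin28b arrays, against 3.38 and 4.06 on the BM empty-vector arrays. With let-7 it read 4.91 and 4.73, against 4.16 and 2.25 in FL empty vector. Its groups did not overlap in either tissue, and the difference was -1.21 ± 0.62 with Lin28b (unadjusted p = 0.101) and 1.61 ± 0.62 with let-7 (adjusted p = 0.493). Usp18 read 0.10 and -0.19 with Lin28b, against 0.80 and 1.45 in BM empty vector, and 3.04 and 2.93 with let-7, against 2.48 and -0.15 in FL empty vector. It followed the same order as Isg15, with differences of -1.17 ± 0.82 for Lin28b and 1.82 ± 0.82 for let-7. Leaving out FL empty-vector replicate 2 gave let-7 differences of 0.66 for Isg15 and 0.50 for Usp18. Trim25 was the member that stood out by its evenness, at 5.16 and 5.25 with Lin28b, 5.21 and 5.38 in BM empty vector, 5.11 and 5.07 with let-7 and 5.18 and 5.04 in FL empty vector. Its groups overlapped in both tissues, its differences were -0.09 ± 0.13 and -0.02 ± 0.13, and the sign of the let-7 difference turned with the scaling (0.04 after quantile normalization). Leaving out FL empty-vector replicate 2 gave -0.09.

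Oligoadenylate synthetases are activated by double-stranded RNA and make the messenger that switches on RNase L, and Isg20 is an exonuclease that degrades RNA. The 6 genes of this role had median differences of -0.84 with Lin28b and 1.77 with let-7. Oas1a read 2.61 and 2.44 on the BM Lin28b arrays, against 3.23 and 3.59 on the BM empty-vector arrays. With let-7 it read 5.12 and 5.14, against 4.10 and 1.93 in FL empty vector. The 2 FL let-7 arrays were nearly equal while the 2 controls lay far apart, and the let-7 difference of 2.12 ± 0.66 (adjusted p = 0.398) became 1.03 without FL empty-vector replicate 2. Isg20 read 1.22 and 1.18 with Lin28b, against 1.83 and 2.10 in BM empty vector, and 3.10 and 2.75 with let-7, against 2.38 and 0.62 in FL empty vector. Oasl1, which in mice restrains production of Irf7, read 0.42 and 0.14 with Lin28b, against 1.10 and 1.63 in BM empty vector, and 2.17 and 2.20 with let-7, against 1.04 and -1.21 in FL empty vector. Neither gene's groups overlapped in a tissue, and the let-7 difference was 1.42 ± 0.55 for Isg20 and 2.27 ± 0.70 for Oasl1 (adjusted p = 0.494 and 0.396), and 0.54 and 1.15 without FL empty-vector replicate 2.

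The other synthetase genes showed how much single control arrays counted. Oas2 read -1.34 on both BM Lin28b arrays, against -1.15 and 0.00 in BM empty vector, and 1.07 and 1.04 with let-7, against 1.05 and -1.46 in FL empty vector. Its FL groups overlapped because FL empty-vector replicate 1 lay between the 2 let-7 arrays. Oas3 read -3.44 and -3.74 with Lin28b, against -2.83 and -2.06 in BM empty vector, and -1.33 and -2.01 with let-7, against -1.74 and -4.16 in FL empty vector, where its groups overlapped too. The let-7 differences were 1.26 ± 0.83 for Oas2 and 1.28 ± 0.79 for Oas3, and 0.00 and 0.07 without FL empty-vector replicate 2. Within slides 2 and 3 let-7 minus empty vector was 0.01 and 2.50 for Oas2 and 0.40 and 2.15 for Oas3. Oasl2, a synthetase in mice, had the highest within-slide value of all members on slide 2 (1.86) and a let-7 difference of 2.39 ± 0.61 (adjusted p = 0.323), with FL empty-vector replicate 2 not well above background, and 1.57 without that array.

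Dynamin-like Mx proteins, immunity-related GTPases and guanylate-binding proteins attack viruses or the vacuoles of intracellular microbes. Mx1 read -2.84 and -3.63 on the BM Lin28b arrays, against -2.50 and -1.62 on the BM empty-vector arrays. With let-7 it read -2.78 and -2.22, against -3.11 and -6.61 in FL empty vector, where replicate 2 was not well above background. Its let-7 difference of 2.36 ± 1.11 (adjusted p = 0.578) became 0.62 without that array. Igtp read 2.33 and 2.22 with Lin28b, against 2.82 and 3.08 in BM empty vector, and 3.81 on both let-7 arrays, against 3.07 and 2.13 in FL empty vector. Irgm1, an immunity-related GTPase that regulates the others, read 1.90 and 1.89 with Lin28b, against 2.48 and 2.71 in BM empty vector, and 3.43 and 3.21 with let-7, against 3.05 and 1.94 in FL empty vector. Both genes kept their groups apart in each tissue, with Lin28b differences of -0.68 ± 0.31 for Igtp and -0.70 ± 0.36 for Irgm1 and let-7 differences of 1.21 ± 0.31 and 0.82 ± 0.36. The let-7 differences were 0.74 and 0.26 without FL empty-vector replicate 2.

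Gbp2 had replicate arrays close together in every group. It read -0.04 and 0.07 on the BM Lin28b arrays, against 0.61 and 0.78 on the BM empty-vector arrays, and 3.31 and 3.37 with let-7, against 2.94 and 2.85 in FL empty vector. Its Lin28b difference was -0.68 ± 0.13, a 1.60-fold lower signal, with the smallest unadjusted p of the members (0.00234). The SE behind that p also takes in the FL empty-vector gap, which was -0.10 for this gene against a member median of -1.56. Its let-7 difference was 0.44 ± 0.13 (adjusted p = 0.379), and 0.40 without FL empty-vector replicate 2. Gbp3 read 2.36 and 2.52 with Lin28b, against 2.69 and 2.81 in BM empty vector, and 2.90 and 2.85 with let-7, against 2.67 and 2.05 in FL empty vector. Its groups did not overlap in either tissue, and its differences were -0.31 ± 0.22 and 0.51 ± 0.22, the let-7 one 0.20 without FL empty-vector replicate 2. Mx2 and Iigp1 lay on the same sides, at -1.05 ± 0.56 and -0.86 ± 0.37 with Lin28b and 1.15 ± 0.56 and 1.25 ± 0.37 with let-7, which became 0.30 and 0.70 without that array.

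The transcription factors of the list are Stat2 and Irf9, parts of the complex that binds the ISRE, and Irf7, which drives interferon genes and is itself an interferon target. Irf7 had the most negative Lin28b difference of the members. It read -2.99 and -3.29 on the BM Lin28b arrays, against -2.13 and -1.48 on the BM empty-vector arrays, which gave -1.33 ± 0.67, a 2.52-fold lower signal (adjusted p = 1). With let-7 it read 0.51 and 0.33, against -0.10 and -2.20 in FL empty vector, a difference of 1.57 ± 0.67 (adjusted p = 0.532) that became 0.52 without FL empty-vector replicate 2. Irf9 read 1.46 and 1.45 with Lin28b, against 1.88 and 2.14 in BM empty vector, and 3.51 and 3.52 with let-7, against 2.89 and 2.29 in FL empty vector. Stat2 read 1.60 and 1.64 with Lin28b, against 1.80 and 1.93 in BM empty vector, and 2.48 and 2.54 with let-7, against 2.25 and 2.19 in FL empty vector. For all 3 genes both treated arrays lay beyond both controls in each tissue. The differences were -0.55 ± 0.23 and 0.93 ± 0.23 for Irf9 (adjusted p = 1 and 0.298) and -0.25 ± 0.12 and 0.29 ± 0.12 for Stat2 (adjusted p = 1 and 0.518), the let-7 ones 0.62 and 0.26 without FL empty-vector replicate 2. Stat2 was the member whose 2 FL empty-vector arrays lay closest together.

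Among sensors of foreign nucleic acid, Ddx58 encodes RIG-I, Ifih1 encodes MDA5, Dhx58 encodes LGP2 and Zbp1 binds nucleic acids in the Z form, while Eif2ak2 encodes the kinase PKR and Adar an enzyme that edits double-stranded RNA. Zbp1 read -2.13 and -1.97 on the BM Lin28b arrays, against -1.35 and -1.02 on the BM empty-vector arrays. With let-7 it read 1.69 and 1.85, against 0.70 and -0.21 in FL empty vector. It had differences of -0.86 ± 0.31 (unadjusted p = 0.0361) and 1.53 ± 0.31, the let-7 one with the smallest adjusted p of the members (0.232), and 1.07 without FL empty-vector replicate 2. Ddx58 read 0.32 and 0.37 with Lin28b, against 0.86 and 1.12 in BM empty vector, and 2.37 and 2.39 with let-7, against 2.35 and 1.67 in FL empty vector. Its let-7 arrays were thus just above FL empty-vector replicate 1, and its let-7 difference was 0.37 ± 0.24, or 0.03 without FL empty-vector replicate 2. Dhx58 read -0.77 and -0.71 with Lin28b, against -0.10 and 0.27 in BM empty vector, and 1.22 and 0.99 with let-7, against 0.37 and -0.92 in FL empty vector.

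Ifih1 read -1.00 and -1.22 on the BM Lin28b arrays, against -0.51 and -0.16 on the BM empty-vector arrays, and 0.72 and 0.48 with let-7, against 0.01 and -2.07 in FL empty vector. Eif2ak2 read 0.71 and 0.58 with Lin28b, against 1.16 and 1.29 in BM empty vector, and 0.22 and -0.08 with let-7, against -0.25 and -2.09 in FL empty vector. Adar read 1.34 and 1.36 with Lin28b, against 1.79 and 1.99 in BM empty vector, and 2.99 and 2.86 with let-7, against 2.63 and 1.83 in FL empty vector. None of these groups overlapped within a tissue, and FL empty-vector replicate 2 was the lowest FL array for each gene. The let-7 differences were 1.63 ± 0.64 for Ifih1, 1.24 ± 0.57 for Eif2ak2, 1.38 ± 0.42 for Dhx58 and 0.70 ± 0.27 for Adar, with adjusted p between 0.391 (Dhx58) and 0.561 (Eif2ak2). Leaving out FL empty-vector replicate 2 gave 0.59 for Ifih1, 0.32 for Eif2ak2, 0.74 for Dhx58 and 0.30 for Adar.

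Other effectors of the list include Bst2, the membrane protein tetherin that holds budding virus at the cell surface, and Parp9 and Parp14, enzymes of the ADP-ribosyltransferase family. Rtp4 read 2.47 and 2.29 on the BM Lin28b arrays, against 3.26 and 3.58 on the BM empty-vector arrays, and 4.77 and 4.51 with let-7, against 4.23 and 2.20 in FL empty vector. Bst2 read 2.15 and 2.21 with Lin28b, against 2.74 and 3.03 in BM empty vector, and 3.82 and 3.54 with let-7, against 3.27 and 1.81 in FL empty vector. Both genes were lowest on FL empty-vector replicate 2 among the FL arrays, and their let-7 differences were 1.42 ± 0.63 for Rtp4 and 1.14 ± 0.46 for Bst2, which both became 0.41 without that array. Parp9 read 1.40 and 1.39 with Lin28b, against 1.79 and 2.01 in BM empty vector, and 2.81 and 2.84 with let-7, against 2.59 and 2.11 in FL empty vector. Its Lin28b difference was -0.51 ± 0.19 (unadjusted p = 0.0402) and its let-7 difference 0.47 ± 0.19, or 0.23 without FL empty-vector replicate 2. Lgals3bp, a secreted glycoprotein, read 2.32 and 2.14 with Lin28b, against 2.55 and 2.81 in BM empty vector, and 3.28 and 3.17 with let-7, against 2.67 and 1.16 in FL empty vector. Its let-7 difference was 1.31 ± 0.47, and 0.55 without FL empty-vector replicate 2.

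Ifi44 had the widest span of the list. It read 1.95 and 1.83 on the BM Lin28b arrays, against 2.72 and 2.99 on the BM empty-vector arrays, and -0.45 and 0.51 with let-7, against -1.04 and -3.97 in FL empty vector. The difference was -0.97 ± 0.93 with Lin28b and 2.54 ± 0.93 with let-7 (adjusted p = 0.474), and 1.07 with let-7 when FL empty-vector replicate 2 was left out. The SD was 0.09 in BM Lin28b, 0.19 in BM empty vector, 0.68 in FL let-7 and 2.07 in FL empty vector. The SE of both differences pools all of these groups. Rsad2, which encodes viperin, was not well above background on any FL array, so no let-7 fold is given, and its neighbour on chromosome 12, Cmpk2, a mitochondrial nucleotide kinase, had a let-7 difference of 1.63 ± 0.60, or 0.64 without FL empty-vector replicate 2. Ifi35, Xaf1 and Parp14 had let-7 differences of 0.76 ± 0.20, 1.49 ± 0.47 and 0.21 ± 0.18. Without FL empty-vector replicate 2 these were 0.68, 0.77 and -0.01, and the groups of Parp14 overlapped in FL. All 10 genes of this role had negative Lin28b differences, between -1.04 (Rtp4) and -0.40 (Parp14).

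Other probes of the members gave the same signs within each tissue, while sizes could differ. Of 12 members with several probes, 11 further probes were kept, and all 11 had the sign of the tested probe both with Lin28b and with let-7. Between the empty-vector groups 10 of the 11 did, and the further Cmpk2 probe did not (-1.47, against 0.35 on the tested probe). The sizes of BM minus FL also differed between probes of members called there. Iigp1 had 1.12 on the tested probe and 3.53 on the further one, and Ddx58 had -1.02 and -0.26.

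The let-7 effect in FL was set against the Lin28b effect in BM as a difference of differences, which shares no array between its 2 sides. It was positive for all 37 members measured in FL, with a median of 2.18 and a range of 0.07 (Trim25) to 3.54 (Mx1), against a median of -0.02 over all genes. In limma 0 members were called, with 28 at an unadjusted p under 0.05 (826 of all genes higher and 756 lower), while 0.00436% of all genes were, and the smallest adjusted p of a member was 0.2, for Gbp2 at 1.13 ± 0.18. Without FL empty-vector replicate 1, 3 members were called (Oas1a, Oasl1 and Cmpk2) against 0.209% of all genes, and the median was 2.84. The median was 1.21 without FL empty-vector replicate 2.

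Across members, the Lin28b and let-7 differences had a Pearson r of -0.712 and a Spearman rho of -0.762 (37 genes measured in FL, a description over genes measured on the same 8 arrays). Members with the more negative Lin28b difference thus tended to have the more positive let-7 difference. With FL empty-vector replicate 2 left out, r was -0.378 and rho was -0.409, so the relation rested in large part on that array.

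**Figure D5:**
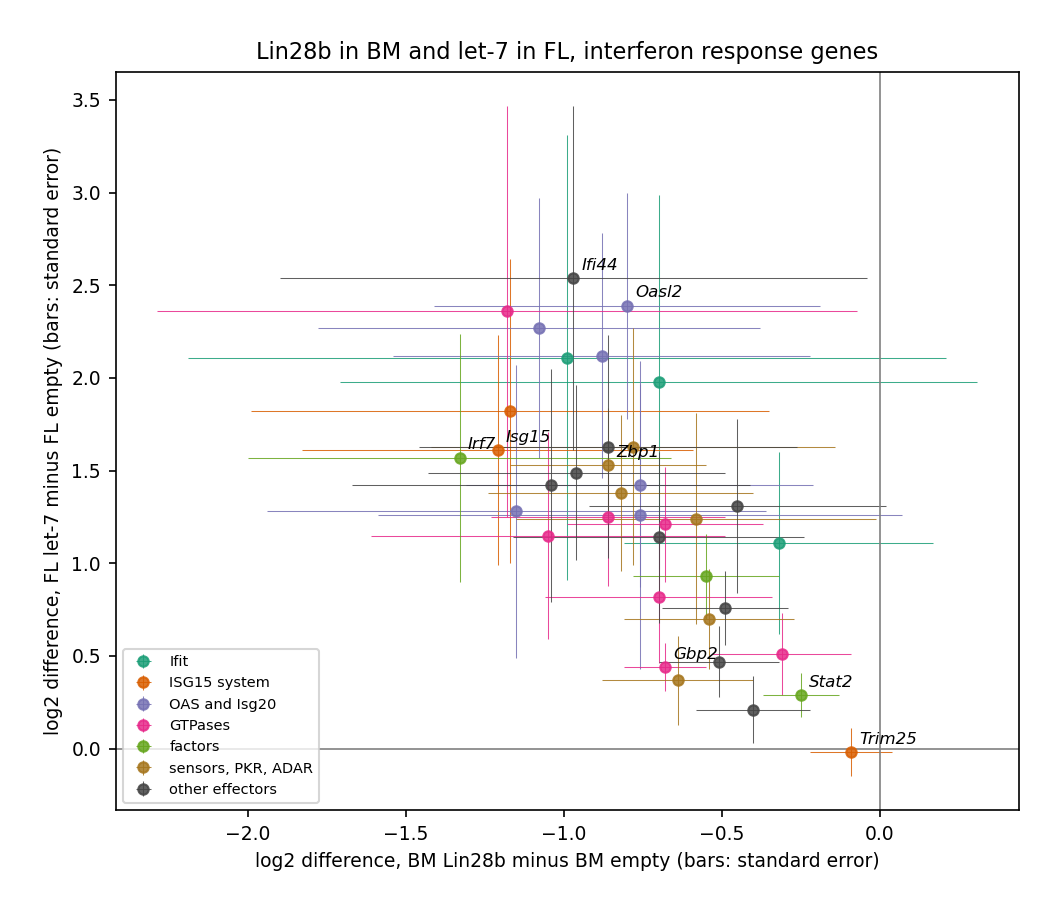
Lin28b difference in BM (BM Lin28b minus BM empty vector) against let-7 difference in FL (FL let-7 minus FL empty vector) for the 37 members measured in FL, in log2 units with bars of 1 SE. All 37 have a negative Lin28b value and 36 have a positive let-7 value, with Trim25 near 0 on both axes.

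Members with and without the ISRE letters had similar median differences. The 15 members with an ISRE match had medians of -0.70 with Lin28b and 1.21 with let-7, and the 13 with a window but no match had -0.76 and 1.42. The 10 members without a window here had -0.86 and 1.32. Among the other tested genes, 479 had an ISRE match and medians of -0.04 with Lin28b and 0.01 with let-7, and 12540 had none and medians of -0.02 and -0.04. The replicate gap in FL empty vector followed the same division, at -1.46 for members with a match, -1.61 for members without one and -0.07 for other genes with a match.

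Between the 2 empty-vector groups, BM against FL, the members went both ways. Of the 38, 6 were called higher in BM empty vector (Ifit2, Iigp1, Eif2ak2, Rsad2, Ifi44 and Parp14) and 4 lower (Gbp2, Stat2, Zbp1 and Ddx58), against 59.6% of all genes called. The share called, 10 of 38, was thus below that of all genes. The median difference, BM empty vector minus FL empty vector, was 0.39 for the members and -0.52 for all genes, with 27 members positive and 11 negative. Both BM arrays lay above both FL arrays for 12 members, against 28.3% of all genes, and below them for 7, against 54.8% of all genes. Tissue, age, vector, slide and scan cannot be told apart in this comparison.

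Ifi44 had the widest called difference, 5.36 ± 0.93 (adjusted p = 0.00483), and every BM empty-vector array was above every FL one. Gbp2 had the most negative, -2.20 ± 0.13 (adjusted p = 0.000505), and its BM arrays were all below its FL arrays. Zbp1 and Ddx58, a pair of sensors, followed at -1.43 ± 0.31 and -1.02 ± 0.24 (adjusted p = 0.011 and 0.0143), while the kinase gene Eif2ak2 lay the other way at 2.39 ± 0.57 (adjusted p = 0.0143). Parp14 and Ifit2 had values of 0.87 ± 0.18 and 1.78 ± 0.49, and Iigp1 1.12 ± 0.37 (adjusted p = 0.00958, 0.0246 and 0.042). Rsad2 was at least 1.53-fold higher in BM empty vector, a bound without a test of its own, because no FL array was well above background. Its call in limma (adjusted p = 0.0138) rests on those dim FL values and does not test the bound. Stat2 was called at -0.35 ± 0.12 (adjusted p = 0.0481), which is less negative than the median of all genes. Quantile normalization moved the median of all genes to -0.04 and the member median to 0.52, with 8 members higher and 3 lower, while the genes called were split 6085 higher to 5884 lower, against 4463 to 9194 as scaled here.

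The control array that stood apart decided much of this comparison. Without FL empty-vector replicate 2 the member median was -0.37, with 4 members called higher and 12 lower in BM empty vector, against 58.2% of all genes called. Without FL empty-vector replicate 1 it was 1.31, with 27 called higher and 3 lower, against 58.1% of all genes. Without BM empty-vector replicate 1, 3 members were called higher and 1 lower, and without BM empty-vector replicate 2, 1 higher and 3 lower. Gbp2, Zbp1 and Ddx58 were called lower with all arrays, in both fits that left out an FL empty-vector array and after quantile normalization, and Ifi44, Eif2ak2, Ifit2 and Parp14 were called higher in the same 4 fits. The Iigp1 call was lost without FL empty-vector replicate 2 (0.58, adjusted p = 0.0804), the Rsad2 call without the same array (adjusted p = 0.0593), and the Stat2 call without either control array (adjusted p = 0.0528 and 0.0816).

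Further interferon targets, listed by symbol beside the members, leaned the same ways. Of 59 listed, 54 were tested, and 52 had negative differences with Lin28b (median -0.44) and 49 positive ones with let-7 (median 0.87). Both BM Lin28b arrays lay below both BM empty-vector arrays for 41 of the 54, against 32.3% of all genes, and both FL let-7 arrays lay above both FL empty-vector arrays for 37, against 11.9% of all genes. In limma 0 were called in either comparison. An unadjusted p under 0.05 was found for 8 with Lin28b (all lower) and 27 with let-7 (all higher). Of all 22927 genes, 372 were lower with Lin28b and 1014 higher with let-7 at that threshold. The let-7 median was 0.37 without FL empty-vector replicate 2, with 46 of the 54 positive and 0 called, and 1.32 without FL empty-vector replicate 1, with 21 called, all higher. Gbp5, a guanylate-binding protein that promotes inflammasome assembly, had the smallest adjusted p with let-7 (0.201). It read 0.05 and -0.01 on the BM Lin28b arrays, against 0.66 and 0.73 on the BM empty-vector arrays, and 0.90 and 0.99 with let-7, against 0.35 and 0.31 in FL empty vector. The 2 FL empty-vector arrays thus differed little for this gene, and its differences were -0.68 ± 0.12 (unadjusted p = 0.00145) and 0.61 ± 0.12, or 0.60 without FL empty-vector replicate 2. Tgtp1, an immunity-related GTPase, read -4.79 and -4.88 with Lin28b, against -4.21 and -3.85 in BM empty vector, and -2.58 and -2.48 with let-7, against -3.30 and -3.37 in FL empty vector. Its FL control arrays also lay close together, and its differences were -0.81 ± 0.16 and 0.81 ± 0.16 (adjusted p = 1 and 0.215), the let-7 one 0.78 without FL empty-vector replicate 2. The near-identical neighbour Tgtp2 may add to the Tgtp1 signal.

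Receptors and signalling parts of the pathway had small median differences, while their counts of separated arrays leaned as in the members. Of 18 tested, 12 were negative with Lin28b (median -0.07) and 9 positive with let-7 (median -0.01), and 0 were called, with 1 at an unadjusted p under 0.05 with Lin28b and 2 with let-7. Both BM Lin28b arrays lay below both BM empty-vector arrays for 10 and above them for 2, against 32.3% of all genes below. Both FL let-7 arrays lay above both FL empty-vector arrays for 7 and below them for 3, against 11.9% of all genes above. The let-7 median was 0.09 without FL empty-vector replicate 2. Irf1, a transcription factor that is itself an interferon target, had the smallest adjusted p of the list with let-7. It read 2.68 and 2.62 on the BM Lin28b arrays, against 2.91 and 2.94 on the BM empty-vector arrays, and 3.48 and 3.55 with let-7, against 3.07 and 3.22 in FL empty vector. Its groups did not overlap in either tissue, with differences of -0.28 ± 0.12 and 0.37 ± 0.12 (adjusted p = 1 and 0.43), the let-7 one 0.44 without FL empty-vector replicate 2. The receptor gene Ifnar1 had differences of 0.09 ± 0.12 with Lin28b and -0.28 ± 0.12 with let-7 (adjusted p = 1 and 0.543), the let-7 one -0.23 without FL empty-vector replicate 2.

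Genes of the nucleic acid sensing pathways other than the members had medians of -0.04 with Lin28b and -0.08 with let-7 over 17 tested, with 0 called, 0 at an unadjusted p under 0.05 with Lin28b and 2 with let-7. The let-7 median was -0.07 without FL empty-vector replicate 2, and without FL empty-vector replicate 1 only Ifi204, named after its values were seen, was called (1.43 ± 0.12, adjusted p = 0.0354). Sting1, the adaptor of the DNA sensor cGAS, had the smallest adjusted p with let-7 (0.151), at 2.81 and 2.97 with let-7, against 3.63 and 3.81 in FL empty vector. It was lower on both let-7 arrays, opposite in sign to the members, with a difference of -0.83 ± 0.14, or -0.74 without FL empty-vector replicate 2. The interferon genes themselves were dim. Of 20 listed, 12 were tested, and Ifnb1 was not among them. Median levels were -4.74 and -4.76 on the BM Lin28b arrays, against -4.67 and -4.69 in BM empty vector. In FL they were -3.76 and -4.62 with let-7, against -3.61 and -4.55 with empty vector. On the FL arrays 11 and 6 of the 12 were well above background with let-7, against 11 and 5 with empty vector. The 12 genes had median differences of -0.05 with Lin28b and -0.15 with let-7 (-0.39 without FL empty-vector replicate 2), and 0 were called or had an unadjusted p under 0.05 in either comparison. The -0.39 sets let-7 arrays of both slides against a control on slide 2, and the median levels were lower on slide 3 in both FL groups. Ifng was not well above background on any FL array but is kept in these let-7 medians.

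Markers of other cells were summed in units of the array's 75th percentile. The 38 members summed to 113 and 112 on the BM Lin28b arrays, against 149 and 182 on the BM empty-vector arrays, and 284 and 269 with let-7, against 202 and 105 in FL empty vector. Stromal markers, which OP9 cells would carry, summed to 63.5 and 43.4 with Lin28b, against 29.0 and 32.4 in BM empty vector, and 22.5 and 17.5 with let-7, against 10.5 and 14.5 in FL empty vector. They were thus higher on the treated arrays in both tissues, whereas the members were lower with Lin28b and higher with let-7. Of 18 stromal markers tested, 15 were positive with Lin28b (median 1.07) and 14 with let-7 (median 0.83, or 0.61 without FL empty-vector replicate 2), 0 were called, and 13 to 18 were well above background on each array.

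Markers of plasmacytoid dendritic cells, a main source of type I interferon, summed to 55.4 and 66.6 with Lin28b, against 72.6 on both BM empty-vector arrays, and 273 and 233 with let-7, against 245 and 248 in FL empty vector. Siglech, their surface lectin, read 5.36 and 5.63 with Lin28b, against 5.83 and 5.82 in BM empty vector, and 7.94 and 7.69 with let-7, against 7.79 and 7.72 in FL empty vector. Siglech makes up most of that sum. Of the 9 markers tested, 3 were higher and 6 lower on FL empty-vector replicate 2 than on replicate 1, with a median gap of -0.15 and a range of -2.31 to 1.07. Myeloid markers summed to 168 and 157 with let-7, against 194 and 138 in FL empty vector, and T and NK cell markers to 23.1 and 30.4, against 32.0 and 60.9. Of 13 myeloid markers 6 were higher and 7 lower on FL empty-vector replicate 2 than on replicate 1 (median gap -0.08, range -1.7 to 6.35). Of 9 T and NK cell markers 6 were higher and 3 lower (median gap 0.36, range -0.89 to 1.05). In BM, myeloid markers summed to 89.6 and 97.9 with Lin28b, against 95.4 and 97.6 in BM empty vector, and T and NK cell markers to 4.10 and 5.76, against 4.05 and 4.14. Single myeloid markers had Lin28b differences between -0.52 and 6.95, with 6 positive, 7 negative and 0 called. Pro-B cell markers summed to 394 and 430 with Lin28b, against 474 and 448 in BM empty vector. In FL they summed to 1040 and 1090 with let-7, against 909 and 1200 with empty vector. Of the 13 tested, 11 were negative with Lin28b (median -0.15) and 10 were positive with let-7 (median 0.07). Their let-7 median was 0.15 without FL empty-vector replicate 2. The part of any of these cell types in the members' differences was not tested.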

How the data were processed

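RNA of 8 samples (100 ng of total RNA each, amplified and labelled with Cy3, per the labels) was measured on Agilent arrays of 1 colour. The deposited scanner files hold spot intensities, already background-corrected by Agilent Feature Extraction 9.5.3.1 according to their headers. A deposited table of normalized log2 values, made by the authors in a way not stated in the sources at hand, served as an alternative within each tissue. Probe positions are mm9, per the file headers.

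Samples were grouped by their titles. Of 44397 spots, 1377 controls were left out. From log2 of the processed signal the 75th percentile over the other 43020 spots of that array was subtracted, and copies of a probe were averaged. Spots flagged as outliers were left out and the other copies of their probe kept, which dropped 31 of the probes, while the design as written would have dropped all 354 probes with any flag. That stricter rule was run as an alternative chosen after seeing the data. Of 39429 probes, 28409 were well above background on at least 2 of 8 arrays and were kept. The probe of highest mean stood for a gene, which gave 22927 genes. Kept probes were named through RefSeq (GRCm38.p6) by accession (19856), symbol (1960) or synonym (563), and 6030 kept the file's name.

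limma 3.58.1 (R 4.3.3, with the package data.table, 1.17.8) fitted 1 mean per group over the 8 arrays with lmFit and eBayes (4 residual and 1.69 prior degrees of freedom). Adjusted p is limma's with Benjamini-Hochberg adjustment over all 22927 genes, called below 0.05, and ± is its standard error. Where no array of a group measured a probe well above background, a bound is given. Precision is limited by how many arrays there were. The fit was tested on simulated data. Motif searches and plots used Python 3.11.15 with matplotlib 3.10.9 and pandas 2.3.3.

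Alternatives were quantile scaling, normexp background correction (offset 50), other filters on dim probes, each probe tested singly, a trended and robust prior, the arrays of 1 tissue alone, the deposited log2 values, each array left out, and replicate number or slide as a block. The labels describe each sort as split into treated and empty-vector wells, but do not say that the replicate number marks the sort. Replicate numbers 1 and 2 did not clearly pair the samples, and the main fit did not pair them. The deviations of same-numbered arrays correlated over all genes at 0.517 in FL, where the number is also the slide, and at -0.0553 in BM. Over the members they correlated at 0.224 in FL and -0.59 in BM.

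The members and all gene lists were chosen with earlier results of these data known. Array values are given for up to 4 members of a role by mean level and for members with 2 arrays of a group over log2 2 apart, and other lists name up to 4 genes by smallest p. Zbp1, Ifnar1 and Siglech were named after their values were seen.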

Additional observations from a re-analysis of the deposited data

How the results depend on the processing

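With Lin28b, 38 of 38 members stayed negative in all 20 alternatives, with a median between -0.96 and -0.60 and 0 called. With let-7, at least 35 of 38 stayed positive and the median over the 38 lay between 0.46 and 2.05, with members called only without FL empty-vector replicate 1. The counts of genes called moved more, and the cause was not tested. With Lin28b they were 2 after quantile scaling, 1 after normexp, 1 with a trended and robust prior, 1 with BM arrays alone, 3 with slide as a block, 2 with the replicate block and that prior, 1 with every probe and 3 in the authors' table. With let-7 (7 as reported) they were 86, 108, 85, 0 with FL arrays alone, 89, 133, and 0 in the authors' table, and 0 with the replicate block alone, 0 without a filter and 44 with a filter on both arrays of a group. For the difference of effects (1 as reported) they were 23, 63, 56, 49, 80, 2 with every probe, 0 with the replicate block alone and 4 with the filter on both arrays. The replicate block with the trended and robust prior called 2 members, Gbp2 and Iigp1, higher in that difference.

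Leaving out each array in turn gave 0 to 522 genes for let-7 (0 to 25 members) and 0 to 48 for the difference (0 to 3 members, median 1.19 to 2.84). Between the tissues it gave 9050 to 14260 genes, 1 to 27 members higher, 1 to 12 lower, and a median of -0.37 to 1.31. Single genes that changed sign with let-7 were Trim25 (0.04 after quantile scaling, 0.02 after normexp and in the authors' table, -0.09 to 0.05 when single arrays were left out), Rsad2 (0.01 after normexp, though not well above background in FL) and Parp14 (-0.01 without FL empty-vector replicate 2, and up to 0.44 with other arrays left out). Blocks, single-tissue fits and the authors' table give no value between the tissues. Leaving out every probe with an outlier flag, chosen after seeing the data, kept the members' counts and medians. With 2 arrays a group and dim FL signals, the data limit what can be called for single genes.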
